A study of Rattus norvegicus with 2 samples.

Results

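The genes described here are the fibroblast growth factor (FGF) and Wnt signalling families of the nucleus tractus solitarius (NTS), taken as every rat probe whose gene name in the array files begins with Fgf, Fgfr, Wnt, Fzd, Sfrp or Dkk followed by a digit. The rule found 63 of 18823 named genes, measured by 77 of 30367 probes and 113 of 42877 spots on each array. They comprise 15 paracrine FGF ligands, 3 endocrine FGF ligands, 4 intracellular FGF homologous factors, 4 FGF receptors, 18 Wnt ligands, 9 frizzled receptors, 4 secreted frizzled-related proteins and 4 dickkopf proteins. The remaining 2 names, Fgfr1op2 and Fgfr1-ps1, match the rule without being ligands or receptors: the first is named after a fusion partner of FGF receptor 1, and the second is a receptor pseudogene. Each group was a pool of NTS RNA, one from 5 male and one from 5 female rats of the Wistar Kyoto (WKY) strain, 9 weeks old. The labels name no drug or genetic change; the rats were killed under ether, and the NTS was cut out from 1.0 mm in front of to 0.5 mm behind the calamus scriptorius. Each rat gave 100 ng of RNA to its pool, and the RNA of a pool was read on 1 array with a single dye. The study asked how gene expression in this cardiovascular centre of the brainstem differs between the sexes. A single array stands for each sex, so there is no replicate check and no test, and differences are described by their size, given in log2 units with the male value subtracted from the female.

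FGFs are secreted or intracellular proteins. Secreted members bind receptor tyrosine kinases together with heparan sulphate or a klotho co-receptor and activate the Ras-ERK cascade, whereas the homologous factors stay in the cell and bind voltage-gated sodium channels. Wnts are lipid-modified ligands that bind frizzled receptors and stabilise beta-catenin or act on cell polarity; secreted frizzled-related proteins bind Wnts outside the cell, and dickkopf proteins block the co-receptors Lrp5 and Lrp6. In the adult brain these families are known from glia, from vascular and barrier upkeep and from synapses, and several ligands are best known from embryonic patterning.

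Each probe is a 60-base oligonucleotide. The stretches below show what was measured for some of the receptors, for the receptor pseudogene and for Fgf2, whose probe was spotted 10 times on each array. The Fgfr2 probe shown is not among its bright probes, and no Fgfr3 probe is shown. The receptor probes of Fgfr1, Fgfr2 and Fgfr4 target the same conserved stretch, and bases identical in all 3 after ungapped alignment are in capitals. Each probe has at least 1 reading frame without a stop codon.
Fgfr1: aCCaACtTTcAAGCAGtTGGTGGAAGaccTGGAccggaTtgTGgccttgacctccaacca
Fgfr2: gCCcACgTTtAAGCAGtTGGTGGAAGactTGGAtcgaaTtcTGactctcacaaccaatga
Fgfr4: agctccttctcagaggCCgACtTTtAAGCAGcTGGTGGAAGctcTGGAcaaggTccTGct
Fgfr1-ps1: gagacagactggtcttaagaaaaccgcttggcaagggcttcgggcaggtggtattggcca
Fgf2: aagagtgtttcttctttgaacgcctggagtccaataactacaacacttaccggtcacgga
Fzd2: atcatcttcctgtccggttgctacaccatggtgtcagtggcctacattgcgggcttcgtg
The Fgfr1 and Fgfr2 probes share 44 of 60 aligned bases (73.3%), those of Fgfr1 and Fgfr4 32 of 45 (71.1%), and those of Fgfr2 and Fgfr4 31 of 45 (68.9%). By the array files' coordinates on build rn4 these 3 probes lie at chr16:70870258-70870317, chr1:189488370-189488429 and chr17:15512990-15513049, all on the minus strand. The Fgf2 probe lies at chr2:123946945-123947004 on the plus strand, the Fzd2 probe at chr10:91710151-91710210 on the plus strand and the pseudogene probe at chr4:76414609-76414668 on the minus strand. Exon and untranslated-region annotation of this build was not used here.

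A second set shows pairs of ligand paralogues whose probes target matching stretches; capitals mark bases shared within each pair.
Fgf16: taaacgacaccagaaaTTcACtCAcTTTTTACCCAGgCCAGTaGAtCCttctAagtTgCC
Fgf20: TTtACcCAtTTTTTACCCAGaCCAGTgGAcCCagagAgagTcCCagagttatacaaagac
Fgf11: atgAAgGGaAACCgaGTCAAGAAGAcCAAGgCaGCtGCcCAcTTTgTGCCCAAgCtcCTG
Fgf13: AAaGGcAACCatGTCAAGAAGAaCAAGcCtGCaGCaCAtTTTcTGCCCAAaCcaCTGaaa
The Fgf16 and Fgf20 probes share 30 of 44 aligned bases (68.2%), at chrX:93879974-93880033 and chr16:55393664-55393723, both on the plus strand. The Fgf11 probe and the single-spot probe of Fgf13 share 43 of 57 aligned bases (75.4%), at chr10:56619983-56620042 and chrX:144205095-144205154, both on the minus strand. Fgf13 and Fgf16 are the 2 X-linked members. Because each probe binds its target differently, signals were compared between the arrays for the same probe, and between genes only the resulting differences were set side by side.

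Most of these genes gave a signal in the NTS. Of the 63 genes, 52 (82.5%) had a probe well above background on both arrays, against 82.7% of all named genes, so detection was close to the background share. Another 7 were well above background on the female array only, as 3.23% of all named genes were, none on the male array only, and 4 on neither array, as 13.5% of all named genes were. The 4 were Fgf8, a patterning signal of the embryonic mid-hindbrain boundary, Fgf19, the gut hormone gene, Fzd5 and Dkk2. All 4 homologous factors, all 4 FGF receptors and all 4 secreted frizzled-related proteins were detected on both arrays, as were 8 of 9 frizzled receptors, 15 of 18 Wnt ligands, 11 of 15 paracrine FGF ligands, 2 of 3 endocrine ligands and 2 of 4 dickkopf genes.

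**Figure D1:**
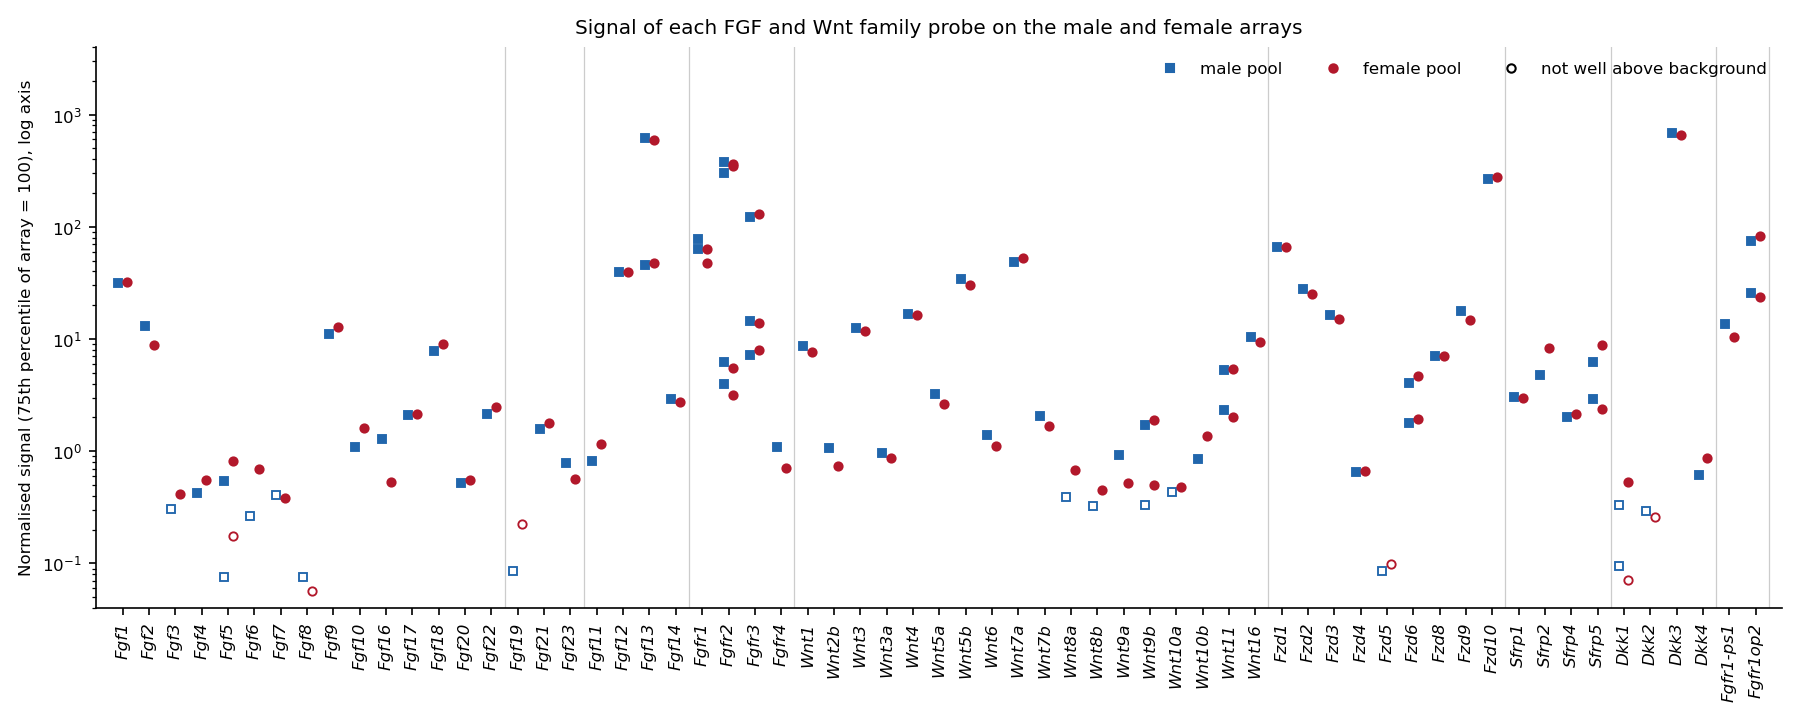
Normalised signal of every probe of the 63 genes on a log axis (75th percentile of the array = 100), male pool as blue squares and female pool as red circles, grouped by family with grey lines; open symbols are not well above background. Most pairs of symbols lie at nearly the same height, and the open symbols sit in the lowest part of the plot among FGF ligands, Wnt ligands, Fzd5 and the dickkopf genes.

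Signals below are normalised so that the 75th percentile of each array equals 100. As a measure of technical error, the SD of the log2 difference over the spots of repeated probes was 0.306 for mean signals under 1.5625, 0.151 from there to 6.25, 0.0892 from 6.25 to 25 and 0.0692 above. This spread leaves out differences between rats and between labelling reactions, and 50 of the 63 genes rest on a single spot. On the arrays 85.5% (male) and 87.9% (female) of rat spots were well above background, and no spot was saturated. The arrays were not alike in all respects. Of all named genes, 607 were well above background on the female array only and 97 on the male array only. Scaling on spike-in probes shifted the median difference of all genes from -0.014 to 0.656. Both pools showed the hindbrain markers: the 7 measured markers of the NTS and dorsal hindbrain had a median difference of 0.010, with Dbh, of noradrenaline synthesis, at 1010 in the male and 973.3 in the female pool and Tlx3 at 119.6 and 114. The labels name both tissues NTS, and markers of adjoining tissue were present in both pools and unequal between them. All 7 measured blood cell markers were lower in the female pool (median -0.645), as were 10 of 12 markers of meninges and fibroblasts (median -0.317) and 9 of 10 of choroid plexus (median -0.224), while 9 of 11 markers of oligodendrocytes and their precursors were higher there (median 0.183). With spike-in scaling the medians were 0.025 for blood cells, 0.353 for meninges and 0.447 for choroid plexus. None of these markers was at background on both arrays. In bulk tissue, fewer cells of a type and less RNA per cell cannot be told apart.

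The medians of the members and of all genes lay close together. Of the 52 genes measured on both arrays, 24 were higher in the female pool, where 45.7% of all genes were, and 28 in the male pool, where 54.3% were, with a median difference of -0.013 against -0.014 over all 15560 genes. By the 1.5-fold threshold 2 genes were higher in the female pool, where 0.893% of all genes passed, and 3 in the male pool, where 1.57% passed. Together these 5 are 9.62% of the measured members against 2.47% of all genes. Of the 5, 4 had signals in the dimmest class, where 4 of 15 members (26.7%) passed against 10.6% of all genes of that class. Of the 13 members with signals from 6.25 to 25, 1 passed, Sfrp2 (7.69% against 1.57% of all genes there). None of 12 passed in the class below that one, where 3.17% of all genes did, and none of 12 in the brightest class, where 0.651% did. Sfrp2 lies just inside its class, with a mean log2 signal of -3.978 against an edge of -4. Its difference of 0.801 also exceeded 2 spot SDs by the SD of the class below (0.151). At 2-fold or more there was 1 member, Fgf16, against 0.533% of all genes, and no member reached 3-fold, as 0.141% of all genes did. All 4 dim members fell short of 1.5-fold under normexp background correction, which left Fgf16 at -0.332, Wnt9a at -0.260, Fgfr4 at -0.165 and Wnt10b at 0.239. That correction adds an offset of 50, and the processed signals of these 4 probes ran from 17.69 to 46.03. The offset by itself shrinks differences at such signals, so this setting cannot decide whether the 4 differences hold. Differences over 2 spot SDs of the brightness class were found in 14 of 52 members (26.9%) and in 19.5% of all genes.

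**Figure D2:**
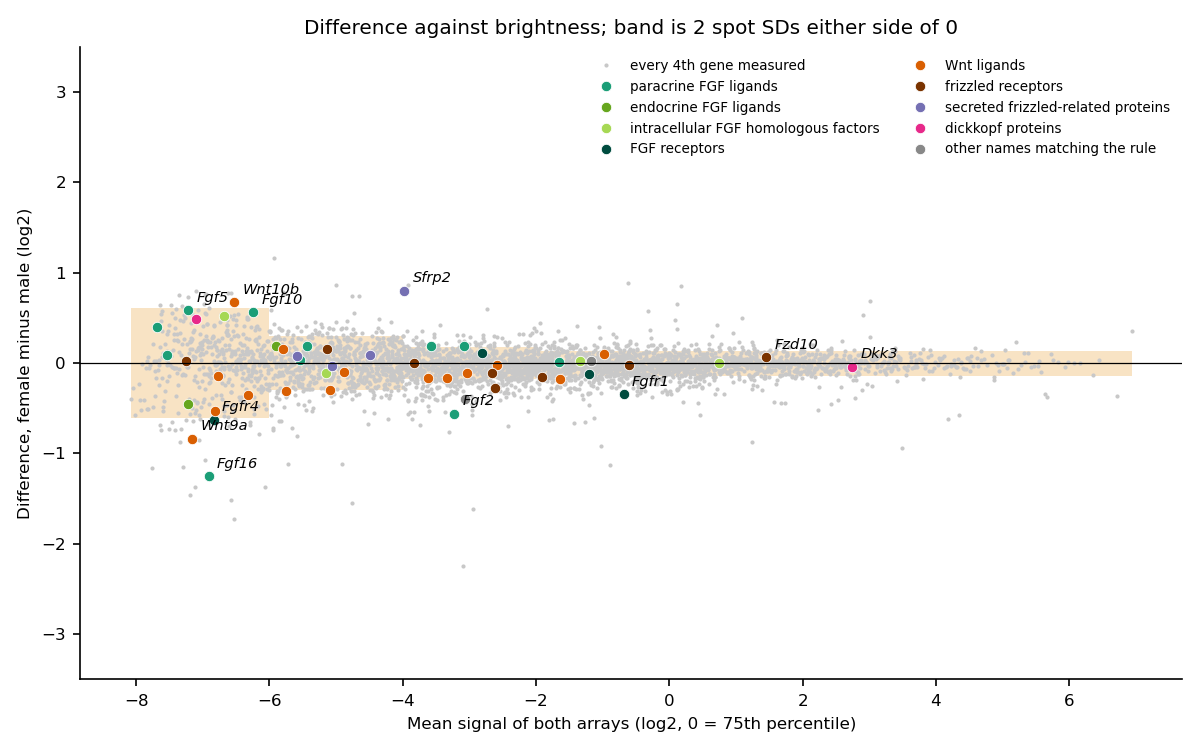
Difference between the pools (log2, female minus male) against mean signal (log2, 0 = 75th percentile) for every 4th gene measured (grey) and for the 52 members (coloured by family), with the band of 2 spot SDs either side of 0 shaded. Fgf16, Wnt9a, Fgfr4 and Wnt10b stand outside the wide shaded band at the dim end, whereas Sfrp2, Fgf2 and Fgfr1 lie outside the narrower band at higher signal.

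Among the paracrine FGF ligands, basic FGF (Fgf2), a broadly acting growth factor of astrocytes, was lower in the female pool in every spot of its probe. Its probe was spotted 10 times. The male spots ranged from 12.61 to 13.34 with a median of 12.95, and the female spots from 8.178 to 9.345 with a median of 8.746. The spots of the arrays did not overlap, and all 10 positions were lower on the female array. The difference was -0.562 ± 0.0803 (SD over 10 spots), 1.476-fold, just under the 1.5-fold threshold. Of 1323 repeated probes measured on both arrays, 8 (0.605%) differed by as much or more in either direction. This set is not matched for brightness: 914 of the probes lie in the brightest class and 245 in the class of Fgf2. Of all genes in the class of Fgf2, 1.57% passed 1.5-fold, against 0.651% in the brightest class. The spots are technical repeats of 1 hybridisation per sex and do not measure the spread between rats. The astrocyte markers moved the same way by less, with 7 of 8 lower in the female pool and a median of -0.097, and Gfap at 261.7 in the male and 209.8 in the female pool. Col1a2 and Aldh1a2 differed most among the 12 markers of meninges and fibroblasts. They stood at 923 and 216.6 in the male and 492.9 and 148.6 in the female pool. The median of the 12 was -0.317, and 2 of them went the other way, Pdgfrb (0.118) and Foxc1 (0.101). The part of these cell types in the Fgf2 difference, and in the others below, was not tested.

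**Figure D3:**
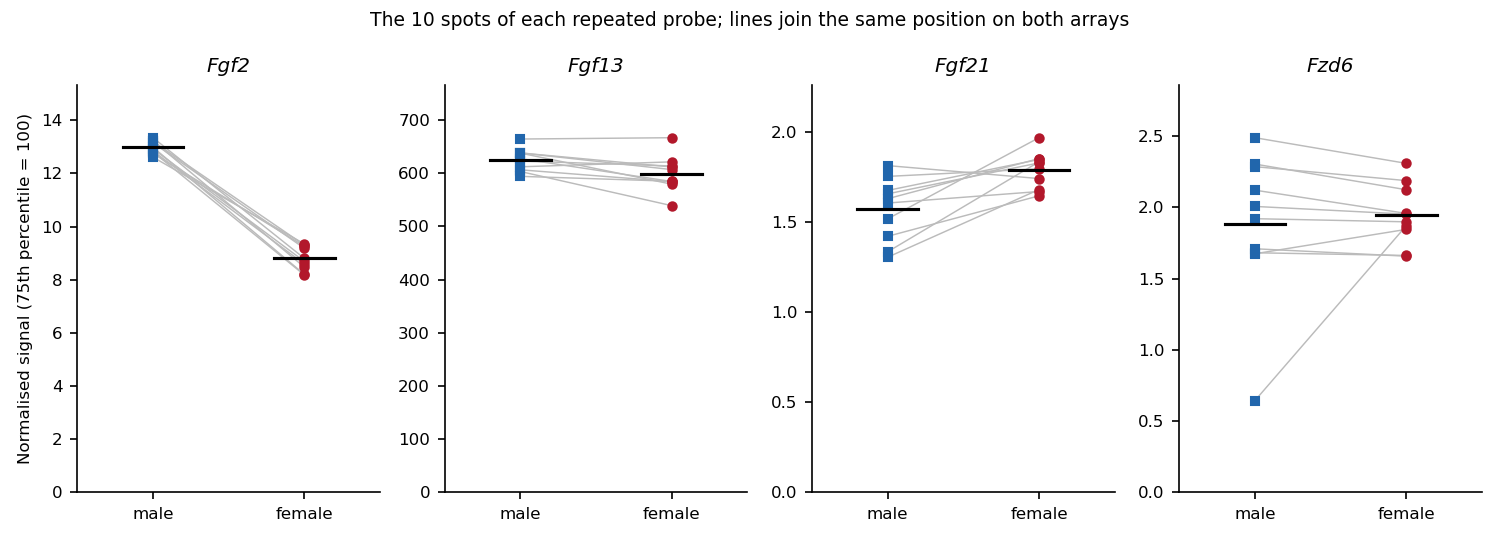
Normalised signal of the 10 spots of the repeated probes of Fgf2, Fgf13, Fgf21 and Fzd6 on the male (blue squares) and female (red circles) array, with grey lines joining the same position and black bars at the mean; axes start at 0. The Fgf2 spots separate completely, from 12.61 to 13.34 against 8.178 to 9.345, the other 3 genes overlap, and 1 male spot of Fzd6 lies at 0.6446, far below the rest.

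The other paracrine ligands were mostly slightly higher in the female pool. Of 11 measured, 9 were higher there, where 45.7% of all genes were, and 2 in the male pool, Fgf2 and Fgf16. The median was 0.187 against -0.014 over all genes, or 0.053 under normexp, whose offset of 50 shrinks differences of dim genes. The count was 8 with quantile normalization. Of the 9, only Fgf9 and Fgf18 exceeded 2 spot SDs. Fgf16, a ligand of the Fgf9 subfamily, gave 1.282 in the male and 0.5373 in the female pool, a difference of -1.254 that was the largest of all members. It rests on 1 spot in a class with an SD of 0.306. The array rows were divided into 20 bands, and that spot lies in 1 of 5 bands with an excess of certain dim spots. Those spots were 2-fold or more brighter in the male pool, at more than 3 times the share in a typical, median band. The 5 bands held 25.5% of rat spots and all measured probes of 11 members. Of 217 other dim spots in the same band, 4.15% differed as much. For Fgf20, whose probe targets the matching stretch, the difference between the pools was 0.084, within 1 spot SD (0.5245 in the male and 0.5558 in the female pool).

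Fgf9, known as a glia-activating factor, stood at 11.1 in the male and 12.67 in the female pool (0.191), and Fgf18 at 7.867 and 8.987 (0.192). Both were higher in the female pool by over 2 spot SDs. These differences are 1.142-fold in both genes. Fgf1, the acidic FGF, was level at 31.78 and 32.

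The ligands known from epithelial and embryonic signalling were dim. Fgf10 stood at 1.084 in the male and 1.599 in the female pool (0.560), Fgf5, a regulator of the hair cycle, at 0.5479 and 0.8206 (0.583) and Fgf4 at 0.4211 and 0.5535 (0.395). All 3 were higher in the female pool by less than 2 spot SDs. Fgf5 was the nearest below the 1.5-fold threshold. Its second probe was not above background on either array. Of the spots in the same band and class as Fgf5, 18% differed as much, and 16.4% for Fgf10. Fgf22, an organiser of presynaptic terminals, stood at 2.161 and 2.461 and Fgf17 at 2.11 and 2.164. Fgf3, Fgf6 and Fgf7 were well above background on the female array only. For them a bound was set as the female signal over the male signal of the same probe, or over the lowest male signal that counted as well above background (0.382) where that was higher. The bound was 1.835-fold for Fgf6 and 1.08-fold for Fgf3. Fgf7 had no bound because its male signal was the higher, 0.406 against 0.3801. Such a bound rests on 1 female spot and makes no allowance for spot error, so it is no secured minimum. In log2 units the Fgf3 bound of 0.111 lay within 1 spot SD of its class (0.306). The Fgf6 bound of 0.876 was over 2 spot SDs. The lowest signal well above background was 0.284 on the female array, so the female array reported dimmer probes; over all named genes 607 were well above background there only and 97 on the male array only.

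The endocrine ligands, which act with klotho co-receptors, stayed dim. Fgf21, a fasting hormone of liver, was spotted 10 times: the male spots ranged from 1.307 to 1.816 with a median of 1.62 and the female spots from 1.648 to 1.971 with a median of 1.815. The spots overlapped, and the difference of 0.191 ± 0.165 (SD over 10 spots) was close to its own spread, with 9 of 10 positions higher on the female array. Fgf23, the phosphate hormone of bone, stood at 0.7803 in the male and 0.5691 in the female pool (-0.455), under 2 spot SDs.

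The intracellular homologous factors, which tune sodium channels, were nearly level between the pools. Fgf13 had 2 probes: its 10-spot probe ranged from 594.1 to 664.2 on the male and from 539 to 666.7 on the female array (-0.061 ± 0.0601, SD over 10 spots), and its single-spot probe differed by 0.053. The spots overlapped and the probes had opposite signs. Fgf12 stood at 39.44 and 39.95 and Fgf14 at 2.932 and 2.727. Only the dim Fgf11 departed further, at 0.8116 in the male and 1.163 in the female pool (0.519), under 2 spot SDs.

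Of the receptors, Fgfr1 was lower in the female pool by both of its probes. One stood at 63.2 in the male and 47.89 in the female pool (-0.400) and the other at 77.56 and 63.34 (-0.292). The gene value of -0.346 is 1.271-fold, below the 1.5-fold threshold and over 2 spot SDs. Both spots lie in the bands of rows described above, in a class where the median difference of the other spots in their bands was -0.021 and -0.010; 2.36% and 5.45% of those spots differed as much. The pseudogene Fgfr1-ps1 stood at 13.72 and 10.4 (-0.399), outside those bands. How far its probe also binds Fgfr1 RNA was not tested, so it is no independent measurement of the receptor.

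Fgfr2 was not resolved. Its 4 probes ran from -0.319 to 0.214. The bright probes stood at 378.5 in the male and 360.6 in the female pool (-0.070) and at 299.7 and 347.6 (0.214), and the dim probes at 3.974 and 3.186 (-0.319) and at 6.24 and 5.507 (-0.180). The direction thus differed between probes of 1 gene. The probe at -0.319 is listed over 38 bases of the genome although it is 60 bases long. Fgfr3, a receptor of astrocytes, had a gene value of 0.106 from 3 probes that ran from -0.082 to 0.174, its brightest at 121.3 in the male and 130.5 in the female pool. Fgfr4 was dim and lower in the female pool, at 1.088 and 0.7037 (-0.628, 1.546-fold), over 2 spot SDs; 6.09% of the dim spots in its band of rows differed as much. It passed the 1.5-fold threshold, just beyond Fgf2 and Fgf5, which did not. The direction for Fgfr1, Fgfr2 and Fgfr4 is relative to the 75th percentile and turns with scaling on spike-in probes, which shifts the median of all genes from -0.014 to 0.656; Fgf2 is then 0.108.

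**Figure D4:**
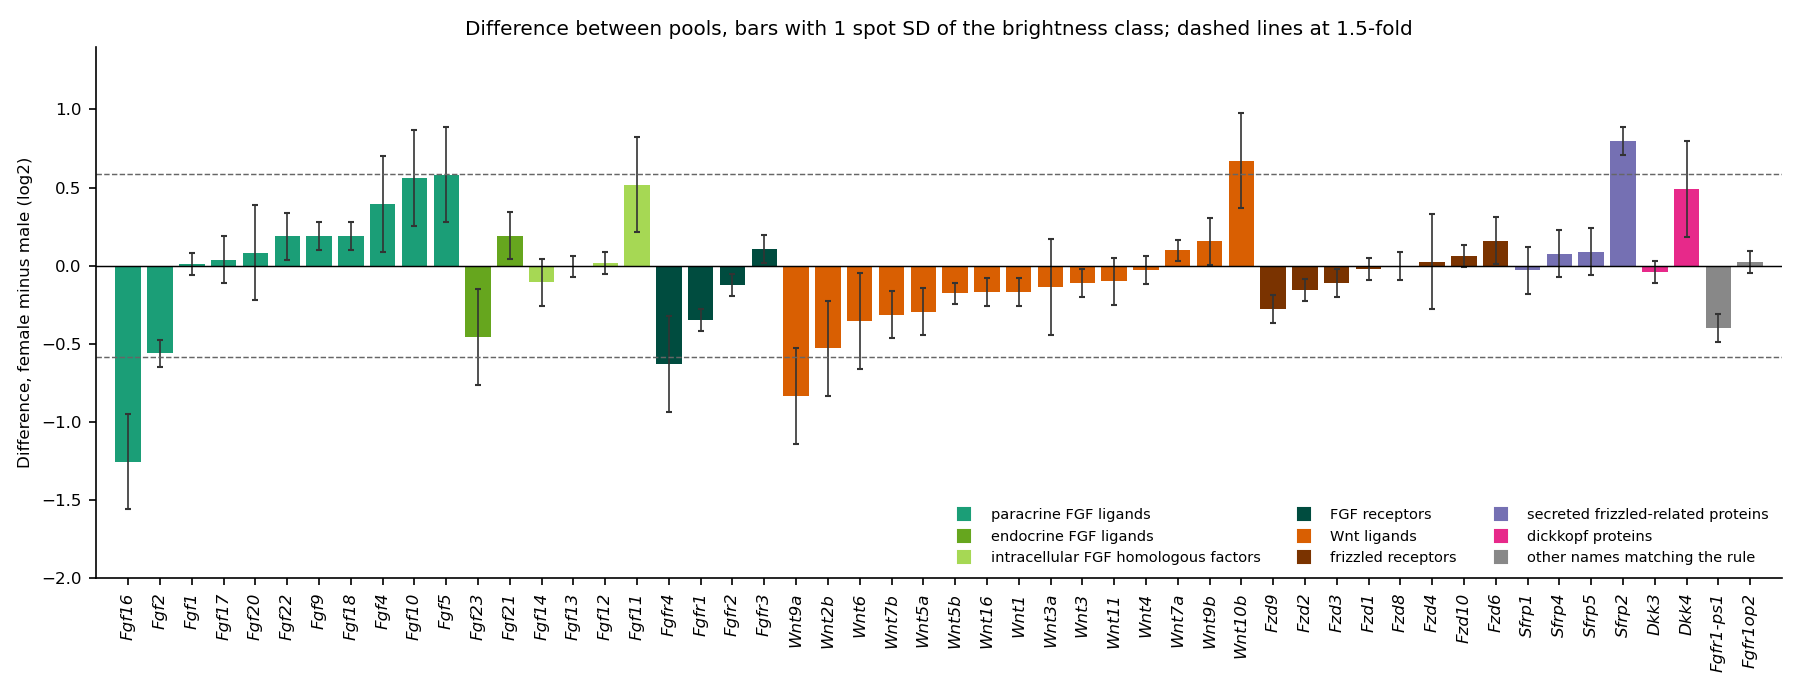
Difference between the pools (log2, female minus male) for the 52 genes measured on both arrays, as bars from 0 ordered by family and size, with error bars of 1 spot SD of the brightness class and dashed lines at 1.5-fold. Bars beyond the dashed lines are Fgf16, Fgfr4 and Wnt9a below and Wnt10b and Sfrp2 above, and 12 of the 15 Wnt ligand bars point down (1 of 15 with spike-in scaling).

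The Wnt ligands leaned to the male pool by small amounts. Of 15 measured, 12 were higher in the male pool, where 54.3% of all genes were, with a median of -0.166 against -0.014 over all genes. The count was 11 of 15 with median scaling, quantile normalization or a loess on brightness, with medians of -0.131, -0.116 and -0.135, and with spike-in scaling the direction turned, with 14 of 15 higher in the female pool and a median of 0.504. No test of this count was made, and the Wnt ligands were measured in the same 2 hybridisations.

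Wnt5b, with a signal of 34.18 in the male and 30.24 in the female pool (-0.177), and Wnt7b, a ligand that acts on brain vessels, at 2.07 and 1.666 (-0.313), were lower in the female pool by over 2 spot SDs. Wnt7b was only just beyond this limit (class SD 0.151), and its single spot lies in the bands of rows described above. The relative Wnt7a, with the same vascular role, was not lower in the female pool, at 48.83 and 52.25 (0.098). Wnt5a, best known for polarity signalling, stood at 3.264 and 2.662 (-0.294), Wnt1 at 8.62 and 7.683 (-0.166), Wnt16 at 10.47 and 9.32 (-0.168), Wnt3 at 12.62 and 11.68 (-0.112) and Wnt4 at 16.81 and 16.52 (-0.025). These 5 lay within 2 spot SDs.

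Dim Wnt genes had the largest differences of this family, in both directions. Wnt9a stood at 0.9344 in the male and 0.5235 in the female pool (-0.836, 1.785-fold). Wnt10b stood at 0.8539 and 1.362 (0.673, 1.595-fold), Wnt2b at 1.064 and 0.7369 (-0.530) and Wnt6 at 1.408 and 1.103 (-0.353). The first 2 exceeded 2 spot SDs and the 1.5-fold threshold, and the others did not. Wnt9a lies in the bands of rows, where 4.9% of 204 other dim spots differed as much; Wnt10b lies outside them, and 3.16% of 158 other dim spots in its band did. Wnt3a was close to level at 0.9631 and 0.8755. Wnt9b had 1 probe on both arrays, at 1.7 and 1.894, and another well above background on the female array only. The 2 probes of Wnt11 gave 0.032 and -0.231. Wnt8a, Wnt8b and Wnt10a were well above background on the female array only. Wnt8b had a bound of 1.176-fold (0.233 in log2 units), within 1 spot SD of its class. For Wnt8a (1.713-fold) and Wnt10a (1.108-fold) the value is the measured ratio of 1 spot and no lower limit. The Wnt10a difference of 0.148 lay within 1 spot SD of its class (0.306). The spots of Wnt8a and Wnt8b lie in the bands of rows described above.

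Some of these genes lie close together in the genome. The array coordinates place 9 pairs of members within 1 Mb of each other on build rn4, and 4 of these pairs were measured on both arrays. Wnt10b and Wnt1 lie 20.54 kb apart on chromosome 7 and differed by 0.673 and -0.166. Wnt9b and Wnt3, 80.38 kb apart on chromosome 10, gave 0.156 and -0.112. Wnt3a and Wnt9a, 85.33 kb apart on the same chromosome, gave -0.138 and -0.836, and Sfrp1 and Dkk4, 858.7 kb apart on chromosome 16, gave -0.029 and 0.492. The sign was the same in 1 of the 4 pairs; the differences of Wnt3a and Sfrp1 lay within 1 spot SD, so their signs are not settled. The chromosome 1 cluster of Fgf3, Fgf4 and Fgf19, with 20.24 and 34.39 kb between probes, was at or near background throughout, with Fgf4 alone measured on both arrays.

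The frizzled receptors were close to level. The 8 measured had a median of -0.013, with 5 higher in the male pool, and that median turned to 0.022 with median scaling and 0.658 with spike-in scaling. Fzd9 stood at 17.94 in the male and 14.78 in the female pool (-0.280) and Fzd2 at 28 and 25.12 (-0.157), and these 2 were over 2 spot SDs. Fzd3, a receptor of axon guidance and planar polarity, stood at 16.35 and 15.16 (-0.109). Fzd1 stood at 66.54 and 65.58, Fzd10 at 266.9 and 279, Fzd8 at 7.012 and 6.992 and Fzd4, the norrin receptor of retinal and brain vessels, at 0.6479 and 0.6597. Each of these 5 lay within 2 spot SDs. Fzd5 stayed below the detection limit in both pools. Fzd6 illustrates how 1 spot can set a value. Its 10-spot probe ranged from 0.6446 to 2.488 on the male and from 1.657 to 2.308 on the female array, with a mean difference of 0.116 ± 0.505 (SD over 10 spots). The median over spots was -0.042, with 8 of 10 positions lower on the female array. Its other probe gave 0.206, so Fzd6 has no settled direction.

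Among the secreted frizzled-related proteins 1 gene was clearly apart. Sfrp2, a secreted frizzled-related protein, stood at 4.807 in the male and 8.378 in the female pool, a difference of 0.801 or 1.743-fold, the only member outside the dimmest class past 1.5-fold. It was at 1.5-fold or more in all 11 alternatives that gave it a value, from 0.621 to 1.472; with the bands of rows left out it had no value. It rests on 1 spot in the bands of rows, where 346 other spots of its class had a median of -0.039 and 1.16% of them differed as much. Sfrp1 stood at 3.019 and 2.958 and Sfrp4 at 2.017 and 2.128, both within 1 spot SD. The probes of Sfrp5 disagreed by more than 0.5, at 6.278 in the male and 8.778 in the female pool (0.484) and at 2.95 and 2.39 (-0.304), so no direction was settled. Fgfr2 was the other member with such a disagreement: 2 of 8 members with several measured probes (25%) against 5.76% of 2845 genes.

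Among the dickkopf genes, Dkk3, the divergent member of the family, was level at 681 in the male and 662.4 in the female pool (-0.040). Dkk4 was dim at 0.6162 and 0.8666 (0.492), under 2 spot SDs. Dkk1, the classical Lrp5 and Lrp6 antagonist, was well above background on the female array only, by 1 of its 2 probes. Its bound was 1.396-fold (0.481 in log2 units), under 2 spot SDs of its class. Fgfr1op2 gave -0.099 and 0.149 by its 2 probes.

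The partners of these families were compared next, from lists of pathway genes. No gene of the 7 lists reached 1.5-fold, which 2.47% of all genes did. Of the FGF co-receptors and binding proteins 5 were higher in the female and 8 in the male pool, with a median of -0.067. The decoy receptor Fgfrl1 stood at 177.8 in the male and 141.7 in the female pool (-0.327) and the klotho gene Kl, which choroid plexus also expresses, at 2.603 and 2.179 (-0.257). The cytoplasmic transducers gave 5 and 11 (median -0.045), with the ubiquitin ligase gene Cbl at 19.73 and 14.88 (-0.408) and the kinase gene Mapk3 at 5581 and 4402 (-0.342).

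The ERK feedback and FGF target genes gave 10 and 6, with a median of 0.040 that was -0.005 under normexp. Egr1, an immediate early gene, stood at 9.319 in the male and 7.169 in the female pool (-0.378), while Spry2, a feedback inhibitor of receptor tyrosine kinases, stood at 15.1 and 19.19 (0.346). These readouts of the same cascade thus differed in sign.

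On the Wnt side, 14 of 17 genes of Wnt secretion and co-receptors were higher in the male pool, where 54.3% of all genes were. The median was -0.147, or -0.058 without the bands of rows and 0.523 with spike-in scaling. The receptor kinase gene Ror1 stood at 2.748 in the male and 1.916 in the female pool (-0.520). The R-spondin receptor gene Lgr5 had a gene value of 0.537 from 2 probes at -0.006 and 1.079, which do not agree. Of the other Wnt inhibitors 7 of 10 were higher in the male pool (median -0.089). Wif1, which binds Wnts in the extracellular space, stood at 406.2 and 299.7 (-0.439), and the axon guidance inhibitor Draxin at 24.25 and 18.69 (-0.375).

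The genes of Wnt signal transduction were balanced, with 16 higher in the female and 18 in the male pool. Their median of -0.006 turned to 0.029 with median scaling, 0.016 with quantile normalization and 0.021 with loess. The largest difference was in Celsr1 (-0.285), a polarity cadherin, followed by Prickle2 (-0.240). Of the feedback and target genes 10 of 15 were higher in the male pool (median -0.047). Of these, Znrf3, Rnf43, Notum and Apcdd1 are also counted in the Wnt lists above, as is Lef1, which was higher in the female pool. The counts of the Wnt lists are therefore not independent. Axin2, the feedback gene most used as a readout of beta-catenin signalling, stood at 24.2 and 17.73 (-0.448) and Tnfrsf19 at 3.083 and 2.405 (-0.358). With spike-in scaling the medians of all 7 lists turned to or stayed on the female side.

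**Figure D5:**
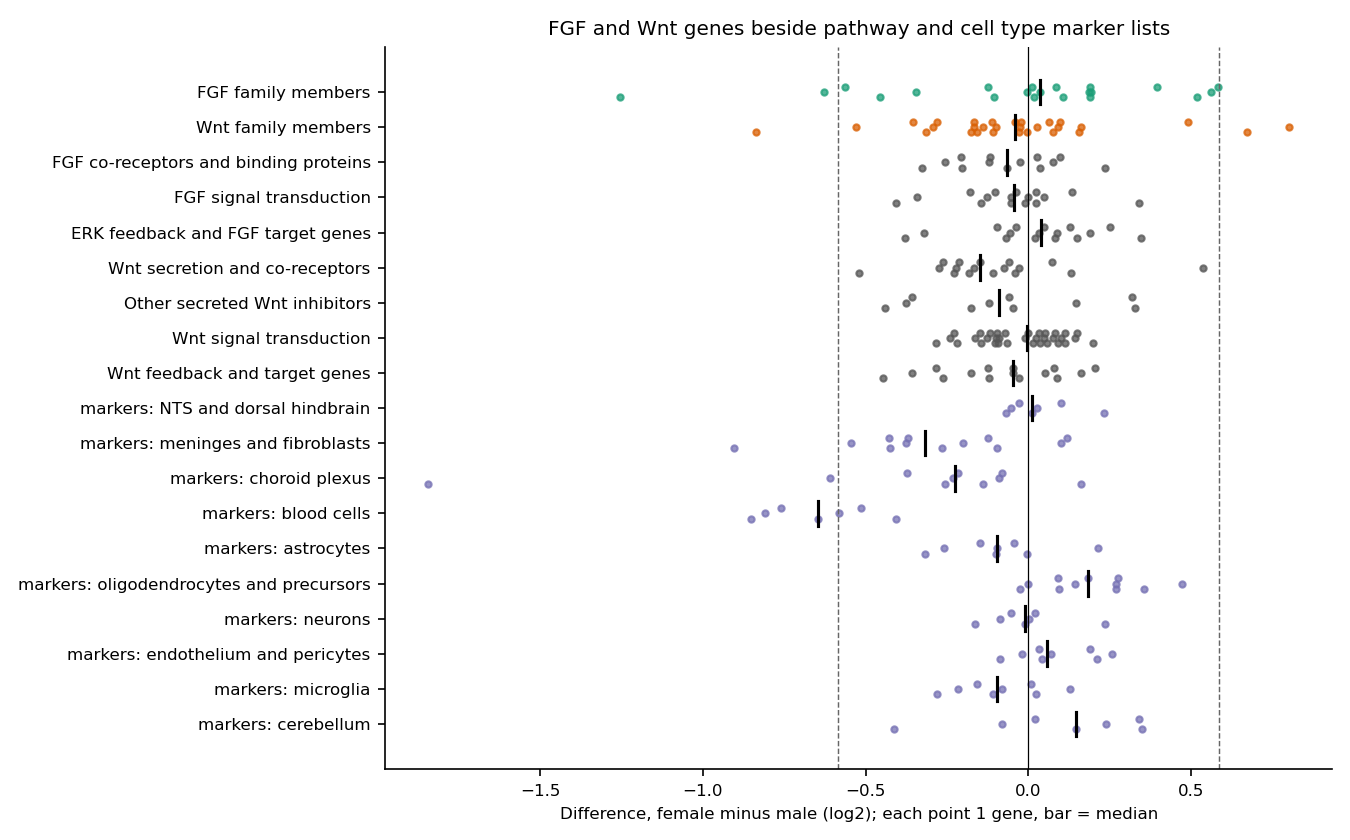
Differences (log2, female minus male) of the FGF and Wnt family members, of 7 pathway lists and of 10 cell type marker lists; each point is 1 gene measured on both arrays, the black bar is the median and dashed lines mark 1.5-fold. The medians of the members and pathway lists lie between -0.147 and 0.04, and those of blood cell, meningeal and choroid plexus markers lie further to the male side; with spike-in scaling every one of these medians is above 0.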

How the data were processed

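Single-colour Agilent arrays measured 1 pool per sex. The deposited intensity values are processed signals, background-subtracted and detrended within each array by Feature Extraction 10.7.3.1, per the file headers; the submitters' processing notes give version 9.1. The deposited value table is the same signal times 1 factor per array. Per the labels' protocols, 150 ng of each pool was labelled and RNA integrity exceeded 7.

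Log2 processed signals were set relative to each array's 75th percentile over rat spots (3441 male, 3380 female). The 430 spots with an outlier flag, none of a member, were left out; spots of a probe were averaged. Probes well above background on both arrays counted, and a gene took the median of its probes. Current symbols came from RefSeq tables (GRCr8) and equalled the array's name for all 77 member probes; 7703 probes had no symbol. No test was made; thresholds were 1.5- and 2-fold. The pipeline was tested on simulated data. The number of arrays limits precision. Normexp used limma 3.58.1 with an offset of 50.

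All receptors, frizzled, Sfrp and Dkk genes were named, the 5 largest differences of other families, every member at 1.5-fold, with such a bound or with discordant probes, and the 2 largest per pathway list; further members were named for completeness. Members and lists were chosen with earlier results of these data known.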

Additional observations from a re-analysis of the deposited data

How the results depend on the processing

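No paired analysis was possible because each sex has 1 array and the labels give no replicate numbers. The number of members well above background on both arrays (52) was 60 with positive and significant signals in place of well above background, 50 where all probes of a member had to pass and 52 with flagged spots kept. The median difference of -0.013 moved by less than a spot SD except with spike-in scaling (0.658). The count of members higher in the female pool by 1.5-fold was 2, and became 4 with median scaling, 30 with spike-in scaling, 1 with normexp, 5 where detection on 1 array was enough, 6 without a filter, 0 among probes brighter than the median and 1 without the bands of rows. The count higher in the male pool was 3, and 0 with spike-in scaling, normexp or the brighter probes and 1 without the bands. The count at 2-fold or more was 1, and 7 with spike-in scaling, 2 where detection on 1 array was enough, 3 without a filter, and 0 with normexp, the brighter probes, without the bands or at 3-fold. Fgfr4 turned to 0.042 with spike-in scaling. Fewer members can be measured among brighter probes (20) and without the bands (41); other causes were not tested. Taking the median over spots was added after seeing the data and changed none of these counts. Signal over background limits the dim members most. The normexp offset of 50 shrinks their differences by itself, so the lower counts with normexp do not test them.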
